A study of Rattus norvegicus with 36 samples.

Results

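The 6 genes S100a8, S100a9, Sele, Selp, Fcnb and Il1b of inflamed tissue were followed in rat mammary gland after a carcinogen. They were found as the probe sets whose platform gene symbol is one of these 6 names, which gave 7 probe sets of the 31099 on the array. S100a8, S100a9, Sele, Fcnb and Il1b had 1 probe set each and Selp had 2, of which 1 was bright enough to be read. The genes were chosen from a reading of these same arrays in which the 6 h results were known, so all of their 6 h values, in NMU and control glands, are given here as a description with no test.

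The glands came from rats of the inbred strains Cop and F344 that received N-nitrosomethylurea (NMU) or saline vehicle at 55 days of age. Collection was at 6 h, 1 d or 30 d, which gives 12 groups of 3 Affymetrix arrays, 36 in all: Cop NMU and Cop control, then F344 NMU and F344 control, at each time. NMU adds methyl groups to DNA and is used to induce mammary cancer in rats, and F344 is known as a susceptible strain and Cop as a resistant one. The labels call the replicates biological without saying whether each is 1 rat, so p-values measure the spread between these arrays.

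S100A8 and S100A9 are small calcium-binding proteins that pair to form calprotectin, a major protein of the neutrophil and monocyte cytosol that stressed epithelium can also make. They act outside the cell as alarm signals on receptors such as TLR4. Selectins are the lectins on which leukocytes first catch and roll along the vessel wall: endothelium makes E-selectin (Sele) anew when cytokines such as interleukin 1 beta (Il1b) reach it, while P-selectin (Selp) is stored ready-made in endothelial and platelet granules. Ficolin B (Fcnb) is a secreted lectin of myeloid cells in rodents that recognises sugars on microbes and starts the lectin pathway of complement.

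S100a9, Sele and Fcnb carry most of the results below, and the sequences around their annotated start sites are shown beside the values. Each is the RefSeq window from 250 bases before to 50 bases after the start of the gene, on build GRCr8, written 5′ to 3′ on the strand of the gene. Capitals mark exact matches to the motifs described after them. In the Sele window the bases at the annotated start are ATG, so this window may lie within the gene. It is not read as the Sele promoter. The windows are chr2:178490573-178490872 on the minus strand for S100a9, chr13:78936264-78936563 on the plus strand for Sele and chr3:31800139-31800438 on the minus strand for Fcnb.
S100a9: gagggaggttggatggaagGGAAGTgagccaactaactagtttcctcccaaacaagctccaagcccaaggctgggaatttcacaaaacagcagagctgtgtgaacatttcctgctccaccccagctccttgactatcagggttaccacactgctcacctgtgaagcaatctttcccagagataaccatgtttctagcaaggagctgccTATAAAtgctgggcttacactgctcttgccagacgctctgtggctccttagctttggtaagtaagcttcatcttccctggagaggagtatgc
Sele: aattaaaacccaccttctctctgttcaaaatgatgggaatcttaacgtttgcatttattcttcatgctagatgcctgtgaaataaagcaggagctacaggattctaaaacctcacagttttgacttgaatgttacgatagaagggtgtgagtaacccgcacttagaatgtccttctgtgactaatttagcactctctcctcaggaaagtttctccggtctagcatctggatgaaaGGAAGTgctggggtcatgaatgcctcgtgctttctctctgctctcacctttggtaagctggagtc
Fcnb: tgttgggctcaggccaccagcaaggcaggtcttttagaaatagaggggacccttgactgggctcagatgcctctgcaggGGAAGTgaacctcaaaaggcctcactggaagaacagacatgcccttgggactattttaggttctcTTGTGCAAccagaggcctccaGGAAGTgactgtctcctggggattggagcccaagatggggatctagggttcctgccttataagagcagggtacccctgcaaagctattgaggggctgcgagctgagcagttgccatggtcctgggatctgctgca

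The following 4 motifs were searched on both strands in the windows of S100a9, Sele, Fcnb and Il1b: TATAAA, the usual TATA box, present in 14.2% of 33469 RefSeq rat windows of this length, GGAAGT, a core bound by Ets factors, in 22.6%, TTGNNCAA, a C/EBP palindrome, in 5.98%, and GGNNTTTCC, a kB element, in 6.05%. S100a9 had TATAAA beginning at position -42 from its start and GGAAGT at -231. Sele had 1 GGAAGT, at -15. Fcnb had GGAAGT at -171 and -85 with TTGTGCAA between them at -106, and Il1b, whose window is not shown, had TATAAA at -60 and TTGTGCAA at 34. None of the 4 windows held GGNNTTTCC. A match to a few letters is a description of the window and shows no binding. For Sele, whose annotated start falls on an ATG, neither a match nor the lack of one describes its promoter.

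By the RefSeq gene order, S100a8 and S100a9 are next to each other on chromosome 2 within a run of S100 genes, Sele and Selp both lie on chromosome 13, and Il1b follows Il1a on chromosome 3.

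The values are the authors' log2 expression values, and differences below are in log2 units unless a fold is named. Probe sets entered the test when 3 or more arrays placed them over their 40th percentile, as 6 of the 7 were. S100a8 was over it on 6 arrays, which were the 6 NMU arrays of 6 h, S100a9 on 13, Sele on 27, and Fcnb, Il1b and the brighter Selp probe set on all 36. The dimmer Selp probe set was over it on none, with values between 3.09 and 3.92, so Selp is read from the other probe set. Each gland was measured whole, so fewer cells of a type and less RNA per cell cannot be told apart.

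Whole glands differed in the tissue they held. The mean log2 level of 9 skeletal muscle markers ran between 5.02 and 12.4 over the arrays and that of 8 keratinocyte markers between 5.49 and 8.45. Cop NMU replicate 1 at 6 h had the highest keratinocyte level of the series and stood apart in several inflammatory genes, as given below. The closest pair of replicates, 1 and 2 of the F344 controls of 1 d, had a root mean square difference of 0.163 over the tested probe sets, and the next closest pair 0.232.

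**Figure D1:**
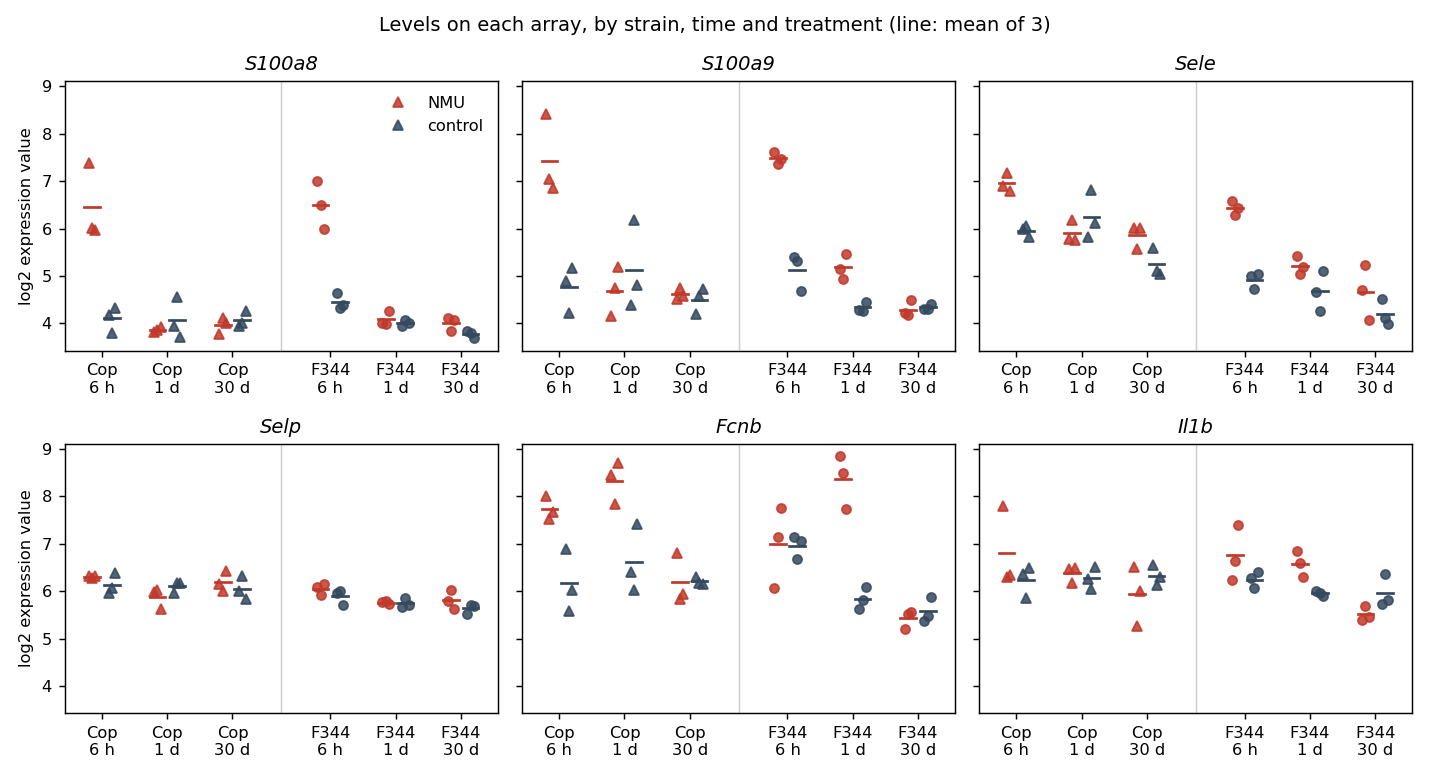
Log2 expression value (vertical axis) of each gene on each of the 36 arrays, grouped by strain and time after treatment, with NMU glands in red left of control glands in dark blue, Cop as triangles, F344 as circles, and a line at each mean of 3. S100a8 and S100a9 are highest on the NMU arrays of 6 h, Fcnb is highest at 1 d after NMU in both strains, and Sele is higher in Cop than in F344 control glands at every time.

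S100a8 and S100a9 were highest at 6 h after NMU in both strains, on every NMU array. In Cop at 6 h, S100a8 read 7.38, 6.00 and 5.98 after NMU, against 4.18, 3.80 and 4.33 in controls. In F344 at 6 h it read 7.003, 6.489 and 5.983 after NMU, against 4.633, 4.327 and 4.391 in controls. All 6 NMU arrays lay above all 6 controls. The fitted difference was 2.35 ± 0.26 (SE) in Cop and 2.04 ± 0.26 in F344. All 6 controls lay under the 40th percentile of their arrays, the level below which probe sets were left out as dim, so no fold is given.

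S100a9, the partner of S100a8 in calprotectin, had 8.42, 7.04 and 6.85 after NMU in Cop at 6 h, against 4.89, 4.22 and 5.17 in controls. In F344 it had 7.62, 7.37 and 7.47 after NMU, against 5.40, 5.30 and 4.68 in controls. The groups again did not overlap. The difference was 2.68 ± 0.35 in Cop and 2.36 ± 0.35 in F344, again from controls of which some lay under the 40th percentile.

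Cop NMU replicate 1 was the highest array of its group for both genes. Without it the Cop differences were 1.89 for S100a8 and 2.19 for S100a9. The Cop response minus the F344 response was 0.31 ± 0.36 for S100a8 and 0.32 ± 0.50 for S100a9, and without that 1 array it was -0.15 and -0.17, so these arrays show no ordering of the strains for either gene.

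At 1 d S100a8 no longer stood apart. It read 3.81 to 3.92 after NMU in Cop, against 3.71 to 4.55 in controls, and 3.98 to 4.26 after NMU in F344, against 3.94 to 4.06 in controls. S100a9 in F344 read 5.15, 4.93 and 5.47 after NMU, against 4.27, 4.27 and 4.46 in controls. All 3 NMU arrays lay above the controls, but the difference of 0.85 (SE 0.35, 95% interval 0.13 to 1.57) did not pass the test (limma, adjusted p = 0.410). In a model of the compared arrays alone it did (adjusted p = 0.0466). In Cop S100a9 read 4.15 to 5.18 after NMU and 4.38 to 6.18 in controls, where replicate 2 was the highest, and the ranges overlapped. The Cop minus F344 response of S100a9 at 1 d was -1.29 (95% interval -2.30 to -0.27), which did not pass over all probe sets (adjusted p = 0.501).

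At 30 d S100a8 lay between 3.77 and 4.11 after NMU in Cop, against 3.93 to 4.26 in controls, and between 3.83 and 4.12 after NMU in F344, against 3.68 to 3.84 in controls. S100a9 lay between 4.51 and 4.74 after NMU in Cop, against 4.20 to 4.72 in controls, and between 4.17 and 4.49 after NMU in F344, against 4.31 to 4.41 in controls. NMU and control ranges overlapped for both genes in both strains. In the order of all 12 group means, the 2 NMU groups of 6 h came first for both genes and did not differ from each other beyond their spread. The next group was F344 control at 6 h for S100a8 (4.45 ± 0.16, SD, n = 3) and F344 NMU at 1 d for S100a9 (5.18 ± 0.27). The remaining 9 means of S100a8 lay between 3.77 and 4.10, and neighbours among them differed by less than their spread.

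The 2 S100 genes also moved together inside the groups. Over the deviations of the 36 arrays from their 12 group means, Pearson's r was 0.760 and Spearman's rho 0.735, and r was 0.720 without the 2 arrays farthest out in S100a8. These points share their arrays, so this is a description of how the pair varied from gland to gland. Of 11 other S100 genes tested, 2 rose and none fell in Cop at 6 h, S100a10, the annexin A2 partner, by 0.50 (adjusted p = 0.00108), and S100a4, a gene of motile cells, by 0.76 (adjusted p = 0.00739). None of the 11 was called in F344 at 6 h with limma, and none had an unadjusted p under 0.05.

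**Figure D2:**
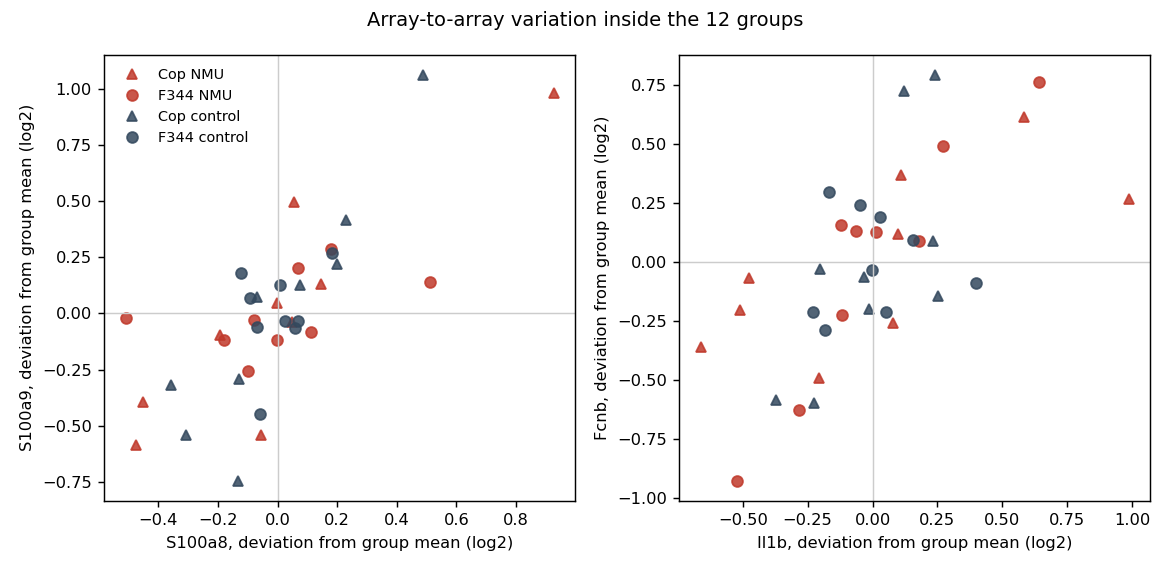
Deviation of each of the 36 arrays from its own group mean (log2), S100a9 against S100a8 on the left and Fcnb against Il1b on the right, with NMU glands in red, control glands in dark blue, Cop as triangles and F344 as circles. Both clouds run upward, with r = 0.760 on the left and 0.655 on the right.

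Neutrophil markers are set beside the S100 genes because calprotectin is known from these cells. Of 30 listed granule and surface genes, 18 were on the array and 9 were bright enough to be tested, and 1 of the 9 was called at 6 h in Cop (Itgam, an integrin of neutrophils, monocytes and macrophages, higher by 0.64, adjusted p = 0.0421) and none in F344, where 2 had an unadjusted p under 0.05. The mean level of the 9 was 7.78 to 8.10 after NMU in Cop at 6 h, against 7.25 to 7.43 in controls, and 7.13 to 7.28 after NMU in F344, against 6.67 to 6.75 in controls. The level was higher in NMU glands of both strains without overlap, as were S100a8 and S100a9. The 9 genes include Lcn2 and Hp. At 6 h Lcn2 averaged 11.79 after NMU and 11.77 in controls in Cop, and 6.83 and 5.55 in F344. Hp averaged 6.95 and 5.82 in Cop, where NMU replicate 1 read 8.742 and its fellows 6.125 and 5.995, and 7.49 and 6.75 in F344. The mean is not read as a measure of neutrophil number. Beside the 1 call among the 9 genes in Cop at 6 h, 6.57% of all probe sets were called there.

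Genes more specific to neutrophils were dim. Camp (cathelicidin, a granule peptide) read 4.44 ± 0.09 (SD, n = 3) after NMU and 4.49 ± 0.12 in controls in Cop at 6 h, and 4.31 ± 0.07 after NMU and 4.37 ± 0.02 in controls in F344. Cxcr2, the main chemokine receptor of neutrophils, read 4.22 ± 0.19 after NMU and 4.06 ± 0.33 in controls in Cop, and 4.37 ± 0.07 after NMU and 4.44 ± 0.09 in controls in F344. For both genes NMU and control arrays overlapped in each strain. Mmp8, Mmp9, Cxcr1 and Csf3r, the receptor of granulocyte colony-stimulating factor, were also too dim to be tested. Csf3r was highest in Cop NMU replicate 1, at 5.29 against 4.36 and 4.41 in the other NMU arrays. Cxcr1 read lower after NMU at 6 h in both strains without overlap. It read 3.764 to 3.805 against 3.825 to 4.133 in Cop controls, and 3.666 to 3.948 against 3.990 to 4.443 in F344 controls. Whether a change in neutrophil number takes part in the S100 values was not tested.

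Il1r2, the decoy receptor of interleukin 1, is in this list and in that of the interleukin 1 pathway, and is named here after its values were seen. It read 8.37, 7.98 and 8.13 after NMU in Cop at 6 h, against 6.39, 7.17 and 6.38 in controls, and 9.32, 7.89 and 8.08 after NMU in F344, against 7.34, 6.60 and 7.09 in controls. The groups did not overlap in either strain, as for S100a8 and S100a9, yet it passed the test in neither.

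Keratinocytes can make calprotectin too. In Cop at 6 h the keratinocyte level was 8.45, 6.23 and 6.21 after NMU, against 8.40, 6.33 and 7.17 in controls. In F344 it was 5.70 to 6.07 after NMU, against 5.80 to 6.90 in controls. Both pairs of ranges overlapped. The part of these cells in the S100 values was not tested.

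Markers of other cells stood apart in Cop at 6 h. The mean of 3 erythroid markers was 7.48 to 7.90 after NMU, against 6.47 to 6.64 in controls, with Hbb, a beta globin, higher by 2.06 (adjusted p = 6.57e-05). That of 12 T and NK cell markers was 5.98 to 7.09 after NMU, against 7.48 to 7.92 in controls, and 4 of them fell, among them Bcl11b, a T cell factor (difference -2.31, adjusted p = 0.00258). That of 8 macrophage markers was 9.73 to 10.06 after NMU, against 9.20 to 9.56 in controls, and 2 rose, among them Cd68 by 0.78 (adjusted p = 0.00737). The 9 muscle markers averaged 9.39 to 10.65 after NMU, against 6.16 to 8.86 in controls. The B cell means were also apart in Cop, 7.152 to 7.688 after NMU against 7.995 to 8.349 in controls. So were the monocyte means, 8.918 to 9.098 against 8.793 to 8.875. In F344 at 6 h the T and NK cell means were apart, 6.58 to 6.65 after NMU against 7.007 to 7.302 in controls. So were the luminal epithelial means, 8.530 to 9.092 against 8.304 to 8.521, and the adipocyte means, 11.503 to 11.587 against 11.212 to 11.410. Those of the erythroid, macrophage and muscle markers overlapped in F344. The part of these cells in the 6 h values of the 6 genes was not tested.

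Of 8 listed receptors and co-receptors for S100A8 and S100A9, all tested, 2 rose and none fell in Cop at 6 h: Bsg (basigin) by 0.41 (adjusted p = 0.0200) and Ly96, the TLR4 partner MD-2, by 0.56 (adjusted p = 0.0444). None was called in F344 at 6 h with limma, where 2 had an unadjusted p under 0.05, and the median of the 8 was 0.27 in Cop and 0.12 in F344, against 0.00 and 0.07 over 11503 other named genes. These counts stand beside calls for 6.57% of all 20749 tested probe sets in Cop at 6 h and for 0.622% in F344. Under that threshold, an adjusted p under 0.05, lay 4 of the 6 genes in Cop at 6 h and 3 in F344, counts from which nothing is read because they chose the genes. The Cop minus F344 response of that time was called for 0.877% of all probe sets and for none of the 6 genes with limma, and 1 had an unadjusted p under 0.05, which is likewise not read.

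**Figure D3:**
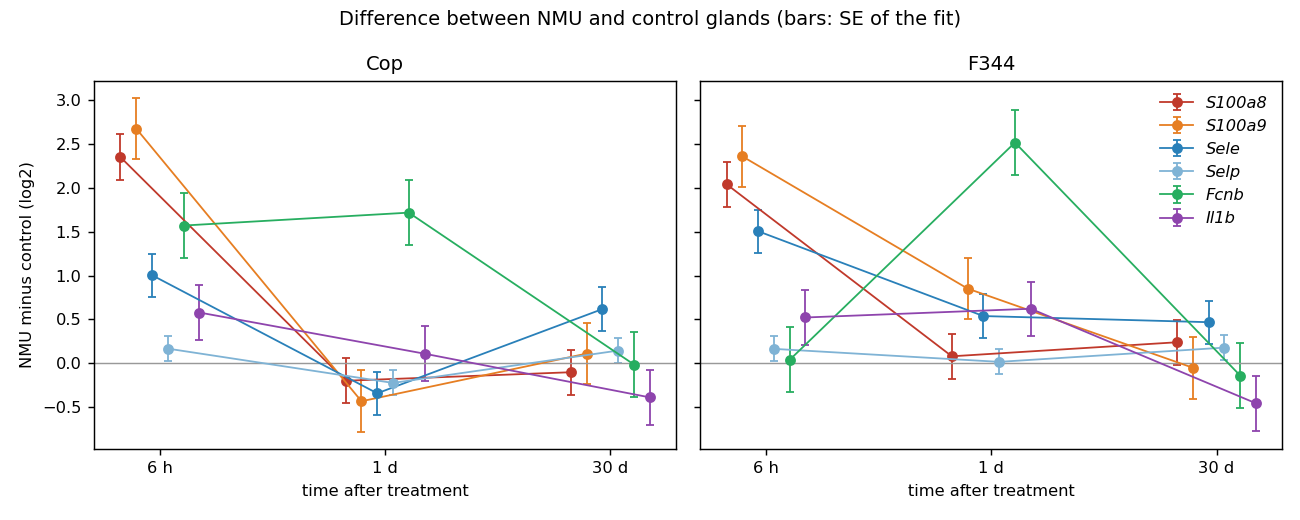
NMU minus control (log2, vertical axis) at 6 h, 1 d and 30 d, evenly spaced along the horizontal axis, for each gene in Cop (left) and F344 (right), with bars of 1 SE of the fit and lines that only join the points. S100a8 and S100a9 exceed 2 at 6 h in both strains and are at most 0.85 at 1 d, whereas Fcnb reaches 1.72 in Cop and 2.52 in F344 at 1 d.

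Sele, E-selectin, was higher after NMU at 6 h and higher in Cop than in F344 control glands. In Cop at 6 h it read 6.89, 7.18 and 6.79 after NMU, against 5.98, 6.05 and 5.82 in controls. In F344 it read 6.571, 6.284 and 6.426 after NMU, against 5.003, 4.727 and 5.034 in controls. No NMU array overlapped the controls of its strain. The difference was 1.00 ± 0.25 (SE) in Cop, a 2.01-fold higher level, and 1.51 ± 0.25 in F344, a 2.84-fold higher level. The Cop response minus the F344 response was -0.50 ± 0.35. Over the arrays left out in turn and the other settings it stayed between -0.61 and -0.40.

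At 1 d the Sele ranges of NMU and control glands overlapped in both strains. It read 5.79, 6.18 and 5.76 after NMU in Cop, against 5.81, 6.82 and 6.13 in controls, and 5.42, 5.03 and 5.18 after NMU in F344, against 4.65, 4.27 and 5.10 in controls. The difference of 0.54 in F344 did not pass (limma, adjusted p = 0.493), nor did the Cop minus F344 response of -0.88 (95% interval -1.59 to -0.17, adjusted p = 0.514). The response of the strains at 1 d was called for 0.207% of probe sets and, with limma, for none of the 6 genes, of which S100a9 and Sele had an unadjusted p under 0.05.

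At 30 d Sele read 6.02, 5.56 and 6.00 after NMU in Cop, against 5.59, 5.10 and 5.04 in controls, a difference of 0.62 (SE 0.25, adjusted p = 0.107). In F344 it read 4.70, 5.22 and 4.07 after NMU, against 4.50, 4.10 and 3.98 in controls, a difference of 0.47 (adjusted p = 0.309), which was 0.19 without NMU replicate 2 and 0.77 without NMU replicate 3. Ranges overlapped in both strains. Endothelial markers moved in the same glands. Of 13 tested, 10 rose in Cop at 30 d, among them Pecam1 by 1.18 (adjusted p = 0.000341) and Tie1 by 1.08 (adjusted p = 0.000341). The 10 include Ackr1, picked below for its likeness to Sele. In F344 3 rose, among them Tek by 0.66 (adjusted p = 0.0104). The mean level of the 13 was 8.85 to 9.40 after NMU in Cop, against 8.19 to 8.63 in controls. In F344 it was 8.39 to 8.44 after NMU, against 7.80 to 8.09 in controls. The Cop count was 3 without NMU replicate 3 and 0 with the compared arrays alone, and the F344 count was 0 there, and also when control replicate 1 or either of the NMU replicates 1 and 2 was left out. In Cop the B cell means were 8.924, 4.882 and 5.114 after NMU, against 8.346 to 8.837 in controls. The T and NK cell means were 7.777, 5.258 and 5.393, against 7.462 to 7.955. The muscle means were 5.336, 11.291 and 10.356, against 8.656 to 9.544. In F344 muscle means were apart, 9.483 to 11.214 after NMU against 5.023 to 9.307 in controls. So, among others, were luminal epithelial means, 9.237 to 9.407 against 9.635 to 9.818. The part of endothelial or other cells in the Sele values was not tested. At 30 d, 9.90% of all probe sets were called in Cop and 3.29% in F344, and none of the 6 genes was called in either with limma, where Sele in Cop was the only one with an unadjusted p under 0.05. The strain difference in response was called for 0% of probe sets at 30 d, and none of the 6 genes was called with limma or had an unadjusted p under 0.05.

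Without any carcinogen, Cop glands held more Sele than F344 glands. At 1 d the control values above, 5.81 to 6.82 in Cop and 4.27 to 5.10 in F344, did not overlap. The difference was 1.58 (SE 0.25, 95% interval 1.08 to 2.08), a 2.99-fold higher level in Cop (limma, adjusted p = 5.46e-05). At 30 d the ranges were 5.04 to 5.59 in Cop and 3.98 to 4.50 in F344, and the difference was 1.05 (SE 0.25), a 2.07-fold higher level (adjusted p = 0.0121). The 6 h controls, given as a description, had 5.82 to 6.05 in Cop and 4.73 to 5.03 in F344, a difference of 1.03 ± 0.25. Sele was the 1 gene of the 6 called between the strains at 1 d and at 30 d, where 15.2% and 2.83% of all probe sets were called. At 6 h it was again the 1 gene under that threshold, beside 19.0% of all probe sets, from which nothing is read.

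The 1 d strain difference kept its call whichever array was left out. The 30 d difference lost it without Cop control replicate 1 (0.88, adjusted p = 0.0994), without F344 control replicate 3 (0.94, adjusted p = 0.0753) and in a model of the compared arrays alone (adjusted p = 0.0997). S100a9 was higher in Cop than in F344 controls at 1 d by 0.79 without passing (adjusted p = 0.139), and without Cop control replicate 1 by 1.16 (adjusted p = 0.0369).

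Sele was also lower in the later Cop controls. The difference of 30 d minus 1 d was -1.01 (SE 0.25) in Cop controls, a level 0.497 times that of 1 d (adjusted p = 0.0138), and -0.48 in F344 controls (adjusted p = 0.181). Between these control groups 4.28% of all probe sets were called in Cop and 22.2% in F344, and Sele in Cop was the only 1 of the 6 genes called, the count in F344 being 0 with limma and 0 at an unadjusted p under 0.05. The Cop call was lost without 1 d replicate 2 (-0.72, adjusted p = 0.194), without 30 d replicate 2 or 3 (adjusted p = 0.0623 and 0.0690) and with the compared arrays alone (adjusted p = 0.135).

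In the order of the 12 group means, Sele was highest in Cop NMU at 6 h (6.95 ± 0.20, SD, n = 3), then F344 NMU at 6 h (6.43 ± 0.14) and Cop control at 1 d (6.25 ± 0.52). The arrays of F344 NMU at 6 h and Cop control at 1 d overlapped. All 6 Cop means lay above every F344 mean other than that of F344 NMU at 6 h. The arrays of F344 NMU at 6 h, 6.28 to 6.57, lay above every Cop control array except 1 d replicate 2, at 6.82. The lowest group was F344 control at 30 d (4.20 ± 0.27).

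Selp, P-selectin, showed no such 6 h step. In Cop at 6 h it read 6.32, 6.28 and 6.31 after NMU, against 5.96, 6.07 and 6.39 in controls, and in F344 6.09, 5.93 and 6.16 after NMU, against 5.97, 6.00 and 5.72 in controls. The differences were 0.17 ± 0.14 and 0.16 ± 0.14, and the groups overlapped. At 1 d the Cop and F344 NMU arrays lay between 5.62 and 6.02 and at 30 d between 5.63 and 6.44, in both cases overlapping the controls of their strain, and no NMU comparison of Selp passed. All 12 group means lay between 5.64 and 6.31.

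Between the strains Selp leaned the same way as Sele. In 1 d controls it read 5.96, 6.17 and 6.17 in Cop, against 5.66, 5.86 and 5.72 in F344, and in 30 d controls 6.00, 6.32 and 5.85 in Cop, against 5.52, 5.71 and 5.68 in F344. The ranges did not overlap at either time, but the differences of 0.36 (95% interval 0.07 to 0.65, adjusted p = 0.0920) and 0.42 (95% interval 0.13 to 0.71, adjusted p = 0.129) did not pass the test over all probe sets.

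Other endothelial genes were partly higher in Cop as well. Of the 13 endothelial markers tested, 3 were higher in Cop controls at 1 d (Plvap by 0.52, Ackr1 by 0.60 and Egfl7 by 0.37). At 30 d 4 were higher, led by Tek at 0.81, and 7 at 6 h, and none was lower at any of the 3 times. Beside these counts, 15.2%, 2.83% and 19.0% of all probe sets were called in either direction at 1 d, 30 d and 6 h. The 1 d count was 2 whichever array was left out. Ackr1, picked below for its likeness to Sele on these arrays, is in each count and in the medians and mean level. They are therefore given as a description. The median differences of the 13 were 0.12, 0.39 and 0.48 at 1 d, 30 d and 6 h, against 0.03, -0.03 and 0.09 over the other named genes. The mean endothelial level of 1 d controls was 8.16 to 8.40 in Cop and 8.07 to 8.17 in F344, so the ranges touched where those of Sele did not. At the other times they were apart, as those of Sele were: 8.19 to 8.63 in Cop and 7.80 to 8.09 in F344 at 30 d, and 8.44 to 8.52 in Cop and 7.958 to 8.001 in F344 at 6 h. All 6 tested adipocyte markers were lower in Cop controls at 1 d (median -0.70). Muscle means of controls were lower in Cop at 1 d, 6.744 to 8.993 against 11.640 to 12.366 in F344. At 6 h they were 6.160 to 8.855 against 11.523 to 12.321, and at 30 d they overlapped. Luminal epithelial means were higher in Cop at 1 d, 8.854 to 9.183 against 8.496 to 8.602. They were also higher at 6 h and overlapped at 30 d. The erythroid, neutrophil, monocyte, T and NK cell and B cell means were also apart at 1 d. The part of gland composition in the Sele difference was not tested.

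Ackr1, a chemokine receptor of venular endothelium, had the pattern closest to that of Sele, with r = 0.861 over the 36 arrays. It read 9.47, 9.78 and 9.80 after NMU in Cop at 6 h, against 8.86, 8.90 and 8.76 in controls, and 9.30, 8.91 and 9.04 after NMU in F344, against 8.42, 8.31 and 8.36 in controls. Because it was picked for its likeness to Sele on these arrays, its differences are a description with no test: 0.84 in Cop and 0.72 in F344 for NMU minus control at 6 h, and 0.60 at 1 d and 0.66 at 30 d for Cop minus F344 controls. Within the groups the 2 genes were less tightly linked, with r = 0.380 and rho = 0.377, and r = 0.467 without the 2 arrays farthest out in Ackr1. The mean of all 13 endothelial markers, Ackr1 among them, was 8.50 to 8.80 after NMU in Cop at 6 h, against 8.44 to 8.52 in controls, and 8.14 to 8.36 after NMU in F344, against 7.958 to 8.001 in controls.

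**Figure D4:**
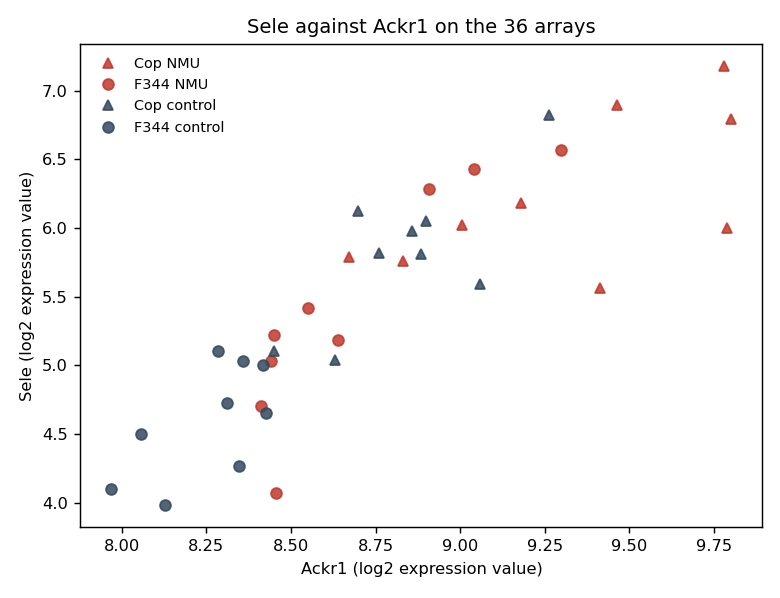
Sele (vertical axis) against Ackr1 (horizontal axis), both as log2 expression values, on the 36 arrays, with NMU glands in red, control glands in dark blue, Cop as triangles and F344 as circles. F344 control glands fill the lower left, with Sele between 3.98 and 5.10, and the 6 h Cop NMU glands, with Sele between 6.79 and 7.18, the upper right.

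Some genes of the wider leukocyte adhesion list were called at 6 h, where 6.57% of all probe sets were called in Cop and 0.622% in F344. Of 18 tested, 3 rose and 1 fell in Cop, where Itgax, the CD11c integrin of myeloid cells, rose by 0.69 (adjusted p = 0.0147), Itgam by 0.64 and Itgb1 by 0.35 (adjusted p = 0.0195), while Spn (CD43, a mucin of lymphocytes and other leukocytes) fell by 1.49 (adjusted p = 0.00513). In F344 at 6 h the 1 called gene was Itgax, higher by 0.81 (adjusted p = 0.0262). Median differences were -0.01 in Cop and 0.18 in F344. Icam1 and Vcam1, which endothelium makes alongside E-selectin under cytokines, were not called at 6 h in either strain: Icam1 read 8.87 to 9.55 after NMU in Cop, against 8.85 to 9.20 in controls, and 8.98 to 9.42 after NMU in F344, against 8.45 to 8.77 in controls.

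Fcnb, ficolin B, had its highest group means at 1 d after NMU in both strains, where the S100 genes had theirs at 6 h. In Cop it was already apart from controls at 6 h. At 1 d in Cop it read 8.45, 7.84 and 8.70 after NMU, against 6.42, 6.02 and 7.41 in controls. At 1 d in F344 it read 8.86, 8.49 and 7.74 after NMU, against 5.63, 5.81 and 6.09 in controls. NMU and control ranges did not overlap in either strain. Fcnb rose by 1.72 in Cop (SE 0.37, 95% interval 0.95 to 2.48), a 3.29-fold higher level (limma, adjusted p = 0.0190), and by 2.52 in F344 (SE 0.37, 95% interval 1.75 to 3.28), a 5.73-fold higher level (adjusted p = 8.27e-05).

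It was the 1 gene of the 6 called at 1 d in each strain, where 0.761% of all probe sets were called in Cop and 0.983% in F344. The F344 call held in each of 12 alternatives, with differences between 2.27 and 2.83 and adjusted p-values up to 0.00534. The Cop call was lost without control replicate 1 (adjusted p = 0.118), control replicate 2 (0.149), NMU replicate 1 (0.102) or NMU replicate 3 (0.0864), and with the compared arrays alone (0.163), while the difference stayed between 1.42 and 2.11. The Cop minus F344 response was -0.80 (95% interval -1.88 to 0.28, adjusted p = 0.859), so the strains were not shown to differ at 1 d.

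At 6 h Fcnb was apart from controls in Cop and overlapped them in F344. In Cop it read 8.009, 7.535 and 7.673 after NMU, against 6.893, 5.586 and 6.026 in controls, a difference of 1.57 ± 0.37 (SE) with no overlap. In F344 it read 6.07, 7.16 and 7.76 after NMU, against 7.15, 6.67 and 7.05 in controls, a difference of 0.04 ± 0.37 in which the NMU arrays lay on both sides of the controls. The Cop response minus the F344 response was 1.53 ± 0.53. F344 controls read higher at 6 h (6.96 ± 0.25, SD, n = 3) than at 1 d (5.84 ± 0.23), without overlap. Cop controls at 6 h (6.17 ± 0.66) and 1 d (6.61 ± 0.72) overlapped.

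At 30 d NMU and control ranges overlapped, with 6.81, 5.84 and 5.94 after NMU in Cop, against 6.30, 6.18 and 6.15 in controls, and 5.21, 5.53 and 5.57 after NMU in F344, against 5.36, 5.49 and 5.87 in controls. In the order of the 12 group means the NMU groups of 1 d came first (F344 8.36 ± 0.57, Cop 8.33 ± 0.44) and did not differ beyond their spread, followed by Cop NMU at 6 h (7.74 ± 0.24) and both F344 groups of 6 h.

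Fcna, the other rodent ficolin, made by macrophages, did not pass at any NMU comparison. It read 11.1 to 11.4 after NMU in Cop at 6 h, against 10.5 to 10.8 in controls, and 10.3 to 10.9 after NMU in F344, against 10.6 to 10.9 in controls. Of 12 tested genes of the lectin complement pathway, 1 was called in Cop at 6 h, C1qb, higher by 0.80 (adjusted p = 0.0352). That comparison called 6.57% of all probe sets, so no pathway change is read from 1 call. None of the 12 was called at 1 d in either strain with limma, where 3 in Cop and 1 in F344 had an unadjusted p under 0.05.

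A few monocyte markers rose beside Fcnb in F344 at 1 d. Of 11 tested, 3 rose and none fell: Fcgr3a, an immunoglobulin receptor, by 1.92 (adjusted p = 1.27e-06), Ly6c by 1.18 (adjusted p = 6.86e-05) and Plac8 by 1.15 (adjusted p = 0.00558). The mean level of the 11 was 9.10 to 9.24 after NMU in F344 at 1 d, against 8.64 to 8.76 in controls, and 8.90 to 9.09 after NMU in Cop, against 8.85 to 8.97 in controls, where none of the 11 was called with limma and 2 had an unadjusted p under 0.05. The monocyte ranges were apart in F344 and overlapped in Cop, while those of Fcnb were apart in both. The mean level of 8 macrophage markers was also apart in both, at 9.75 to 10.001 after NMU in Cop, against 9.26 to 9.70 in controls, and 9.60 to 9.68 after NMU in F344, against 9.12 to 9.57 in controls. Of the 8, Gpnmb rose in Cop by 1.28 (adjusted p = 0.000435) and none was called in F344 with limma, where 1 had an unadjusted p under 0.05. Of 12 T and NK cell markers 3 rose in F344 at 1 d, among them Gzmb, a granzyme of cytotoxic cells, by 2.44 (adjusted p = 9.89e-09), and of the 3 erythroid markers Hbb fell by 2.26 (adjusted p = 1.84e-05). The strain difference in response was called for Fcgr3a at -1.74 (adjusted p = 0.00861). Itgax rose by 1.33 in F344 (adjusted p = 1.26e-05) and Vcam1 by 1.23 (adjusted p = 0.0100). The neutrophil means were apart in Cop at 1 d, 7.673 to 7.870 after NMU against 7.378 to 7.578 in controls. They overlapped in F344, 6.979 to 7.207 against 6.693 to 7.029. Also apart in Cop were the adipocyte means, higher after NMU, and the erythroid and keratinocyte means, lower after NMU. In F344 the T and NK cell and B cell means were apart and higher, and the erythroid means apart and lower. The part of monocyte, macrophage or other cell number in the Fcnb values was not tested.

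Il1b at 6 h was highest on a single NMU array in each strain, and NMU and control ranges overlapped. In Cop at 6 h it read 7.80, 6.30 and 6.33 after NMU, against 6.35, 5.86 and 6.49 in controls, a difference of 0.58 ± 0.31 (SE) that was 0.08 without NMU replicate 1. In F344 at 6 h it read 6.25, 6.65 and 7.41 after NMU, against 6.27, 6.06 and 6.40 in controls, a difference of 0.52 ± 0.31 that was 0.20 without NMU replicate 3. In Cop 1 high array stood over NMU arrays that lay within the control range. In F344 NMU replicates 2 and 3 lay above all controls and replicate 1 lay among them.

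The same 2 arrays were the highest of their groups for several chemokines. In Cop, Cxcl1, a neutrophil attractant, read 9.02 on NMU replicate 1 and 7.08 and 6.96 on its fellow arrays, against 6.39 to 7.49 in controls. In F344 it read 7.65 on NMU replicate 3 and 5.84 and 6.11 on its fellows, against 5.47 to 5.81 in controls. Ccl2, a monocyte attractant, read 10.4 and 10.1 on these 2 arrays and rose in Cop at 6 h by 1.61 (adjusted p = 0.0411). Cop NMU replicate 1 was also the highest in S100a8 and S100a9, whereas F344 NMU replicate 3 was the lowest of its group in S100a8, at 5.98.

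At 1 d Il1b read 6.85, 6.59 and 6.30 after NMU in F344, against 6.01, 5.95 and 5.91 in controls, without overlap, and the difference of 0.62 (95% interval -0.02 to 1.26) did not pass (adjusted p = 0.567). In Cop at 1 d it read 6.18 to 6.49 after NMU and 6.05 to 6.51 in controls. At 30 d it read 5.27 to 6.52 after NMU in Cop, against 6.12 to 6.56 in controls, and 5.40 to 5.69 after NMU in F344, against 5.74 to 6.37 in controls, with the F344 ranges apart and the NMU side lower by 0.46 without passing (adjusted p = 0.451). Its group means lay between 5.51 and 6.81 and most neighbours in their order differed by less than their spread. Of 15 tested genes of the interleukin 1 pathway, 1 rose in Cop at 6 h, Il1rl1, the interleukin 33 receptor, by 0.69 (adjusted p = 0.0316), and none was called with limma in F344 at 6 h or in either strain at 1 d, where 4, 5 (F344) and 4 (Cop) had an unadjusted p under 0.05. Of 6 tested neutrophil attractants and growth factors, 2 rose in Cop at 6 h, Pf4, a platelet chemokine, by 0.83 (adjusted p = 0.0142), and Ccl3 by 0.74 (adjusted p = 0.0444). None of the 6 was called in F344 at that time with limma, and none had an unadjusted p under 0.05. In Cop at 6 h 6.57% of all probe sets were called, so the 1 call among 15 is not read as a change of the interleukin 1 pathway.

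Among 18 tested genes of NF-kB feedback and cytokine response, 2 rose in Cop at 6 h, where 6.57% of all probe sets were called. They were Ccl2, given above, and Cebpd, a C/EBP factor, by 0.82 (adjusted p = 0.0141). In F344 none was called at 6 h with limma, although 9 had an unadjusted p under 0.05 and the median was 0.41, and 1 rose at 1 d, Ccl7, a monocyte attractant, by 1.81 (adjusted p = 0.00265). In control glands 7 of the 18 were higher in Cop than in F344 at 6 h, among them Tnfaip2 by 0.91 (adjusted p = 0.000589) and Relb by 0.83 (adjusted p = 0.00328), 3 at 1 d, led by Bcl3 at 0.93 (adjusted p = 0.00342), and none at 30 d, where 3 had an unadjusted p under 0.05. Of all probe sets, 19.0%, 15.2% and 2.83% were called between these controls at 6 h, 1 d and 30 d, so no course over time is read from the counts.

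Il1b and Fcnb varied together within the groups although their group courses differed. Over the within-group deviations r was 0.655 and rho 0.671, and r was 0.697 without the 2 arrays farthest out in Il1b, as in the plot of deviations from the group means. Other pairs were weaker within the groups: r was 0.223 for Sele with Selp, 0.138 for S100a9 with Sele and -0.310 for S100a8 with Fcnb.

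The genes most like each of the 6, by Pearson's r over the 36 arrays, differed between the members. S100a8 and S100a9 had each other as the closest (r = 0.954, against 0.760 within the groups), and then Edn1 (0.824), Arxes2, Gem and Srxn1 for S100a8, and Aen (0.825), Nr4a3, Srxn1 and Pvt1 for S100a9. Sele had Ackr1, then Hey2 (0.829), Msl3l2, Bbs12 and Btbd10. Selp had Ehd4 (0.743), Ackr1 (0.719), Sele (0.718), Susd6 and Eng. Fcnb had Il18bp (0.820), Ccl7 (0.803), Ifit3, Isg15 and Bcl2a1, and Il1b had Mdm2 (0.817), Ccl3 (0.801), Ccl7, Ccl2 and Gadd45b. These values are a description over arrays that share strain, time and treatment.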

How the data were processed

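Per the labels, RNA was taken from mammary gland with a modified Qiagen column protocol, and biotinylated cRNA from 1 ug of total RNA was hybridised to Affymetrix rat arrays. The submitters' processing notes name GCOS, while no source used here gives the method of summary and normalization. The deposited values are on a log2 scale, as their range of 2.46 to 14.3 shows, and array medians lay between 5.66 and 5.77, so they were used as the authors deposited them. Arrays have no read depth, and their number limits the precision.

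Of the 31099 probe sets, 57 controls of the manufacturer and 10293 dim ones were left out. limma 3.58.1 in R 4.3.3 fitted 1 mean per group to all 36 arrays, with trend and robust moderation, and p-values were two-sided and Benjamini-Hochberg adjusted over 20749 probe sets. SE and intervals come from this fit. Lists count each gene by its brightest probe set. All probe sets of the 6 genes are given, list genes are named up to 4 per comparison by smallest p, and the 5 likest by r. The genes and lists were chosen with earlier results of these data known. Replicate numbers come from the labels. Deviations of same-numbered arrays had only positive r in Cop at 6 h (r = 0.114, 0.142 and 0.435) and in Cop at 1 d (0.202, 0.424 and 0.315). In the other 4 sets some or all r were negative, so pairing was not taken to hold there. Those of F344 were mixed at 6 h (-0.014, 0.35 and 0.507) and at 1 d (0.249, -0.081 and 0.251). The block was tried for all sets as an alternative. Further alternatives were quantile normalization, no filter or one at the 60th percentile, eBayes without trend and robust options, the compared arrays alone and leaving out each array.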

Additional observations from a re-analysis of the deposited data

How the results depend on the processing

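With the compared arrays alone, the number of the 6 genes called was 2 in F344 at 1 d (Fcnb and S100a9, 0.85), 0 in Cop at 1 d (Fcnb 1.72), 0 for Cop against F344 controls at 30 d and 0 for 30 d against 1 d in Cop controls. Over the arrays left out in turn, the count lay between 0 and 1 for NMU in Cop at 1 d, between 1 and 2 for Cop against F344 controls at 1 d, between 0 and 1 for the same strains at 30 d and between 0 and 1 for 30 d against 1 d in Cop controls. It stayed at 1 for NMU in F344 at 1 d and at 0 for NMU in either strain at 30 d, for both strain differences in response and for 30 d against 1 d in F344 controls. With the replicate number as a block, the count for NMU in Cop at 30 d was 1 (Sele, adjusted p = 0.0468), where the pairing does not hold, and the block changed no other call. The F344 difference of Fcnb at 6 h turned to -0.057 under quantile normalization and lay between -0.35 and 0.50 over the arrays left out, with -0.11 and -0.04 among them, so it has no direction. The strain differences in response of S100a8 and S100a9 at 6 h lay between -0.15 and 0.57 and between -0.17 and 0.61 over the arrays left out, the lowest in both cases without Cop NMU replicate 1. With the filter at the 60th percentile S100a8 and Selp were not tested. The share of all probe sets called at 30 d lay between 1.11% (without NMU replicate 3) and 18.4% (without NMU replicate 1) for NMU in Cop, against 9.90% with all arrays, and between 0.140% (without control replicate 1) and 5.34% (without control replicate 2) in F344, against 3.29%. With the compared arrays alone 0 and 2 probe sets were called. At 6 h this share lay between 3.15% and 5.58% in Cop and between 0.111% and 0.655% in F344 over the arrays left out, and at 1 d between 0.217% and 0.728% in Cop and between 0.660% and 1.47% in F344. For Cop against F344 controls it lay between 10.3% and 17.3% at 6 h, 10.2% and 12.2% at 1 d and 1.55% and 3.84% at 30 d, and for 30 d against 1 d in Cop controls between 1.49% and 4.41%. The number of the 13 endothelial markers higher in Cop controls lay between 3 and 5 at 6 h, at 2 at 1 d and between 2 and 5 at 30 d over the arrays left out. The number of the 12 T and NK cell markers that fell in Cop at 6 h lay between 1 and 8. The causes of these changes were not tested.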
